A study of Rattus norvegicus with 16 samples.

Results

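The genes described here are markers of megakaryocytes and of the platelets they shed. The 9 members were chosen by symbol (Gp5, Gp9, Gp1ba, Gp1bb, Itga2b, Pf4, Ppbp, Tubb1 and Treml1), and the list was proposed with earlier results of all 4 groups of samples in view. The levels below therefore describe these libraries. The adjusted p-values come from a fit over all genes and are not independent support for the choice of members. Of the 9 symbols, 6 matched a row of the table of 14476 genes (Gp5, Gp9, Gp1ba, Pf4, Ppbp and Treml1), and all 6 passed the filter on low counts that left 12857 genes. Gp1bb, Itga2b and Tubb1 were not analysed here.

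The study set a cement spacer against an empty gap in a bone defect. Each of 4 Sprague-Dawley rats had a plated osteotomy on both sides. One gap was filled with polymethyl methacrylate (PMMA) cement, the first stage of the Masquelet technique, in which a membrane forms around the spacer, and the other was left empty. At 4 weeks, 4 tissues of each rat gave 16 RNA-seq libraries: the induced membrane (IM) and the neighbouring bone (PMMA bone) from the spacer limb, and the pre-fibrous non-union tissue (PFNU) and the bone next to the empty defect (BNED) from the other limb. All groups thus come from operated limbs, and the paired tissues share a rat.

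Megakaryocytes are the large cells of bone marrow from which blood platelets are released. Platelets hold on to injured vessel walls through the glycoprotein Ib-IX-V complex, which binds von Willebrand factor, and stick to each other through integrin αIIbβ3, of which Itga2b encodes the α chain. Their alpha granules carry the chemokines platelet factor 4 (Pf4) and pro-platelet basic protein (Ppbp), and Tubb1 encodes the tubulin of the ring that gives platelets their shape. In a fracture gap, platelets arrive with the first blood clot, whereas megakaryocytes belong to the marrow of the neighbouring bone. The libraries are of bulk tissue, so fewer cells of a type and less RNA per cell cannot be told apart.

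Libraries held 40472228 to 76815879 counts. Levels are given as CPM, a library's counts scaled to its TMM-adjusted size, and a count of 0 in a library allows a level of up to 0.0352 to 0.0701 CPM (3 counts). Bone cell genes, 8 in number, summed to 13002 to 15245 CPM in PMMA bone, 3963 to 10770 CPM in BNED and 896 to 6483 CPM in the defect tissues. Skeletal muscle genes, 10 in number, summed to 20483 to 288767 CPM in the defect tissues and 1099 to 29431 CPM in bone. One library stood apart in the blood lineages. In the PMMA bone of rat 1 the 11 erythroid genes summed to 60396.5 CPM, against 3271 to 10021 CPM in the other PMMA bones and 28610 to 55072 CPM in BNED. The comparison of the 2 bones is therefore given with and without that library.

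All 3 measured subunits of the platelet adhesion receptor had their highest levels in BNED. Gp1ba encodes the chain that binds von Willebrand factor. It was at 9.17, 11.6, 6.51 and 5.20 CPM in the BNED of rats 1 to 4, and at 3.90, 0.628, 0.783 and 1.15 CPM in their PMMA bone. In PFNU it was at 0, 0.526, 0.125 and 0.817 CPM, and in the membranes at 0, 0, 0.193 and 0 CPM. No library of another group reached the BNED range, and the 10 counts of Gp1ba in the membranes all came from rat 3. Gp9, the small subunit needed for the complex to reach the cell surface, was at 3.82, 5.26, 2.79 and 2.27 CPM in BNED and at 1.40, 0.458, 0.392 and 0.877 CPM in PMMA bone. It was at 0, 0.175, 0.208 and 0.140 CPM in PFNU and at 0, 0.402, 0 and 0.0987 CPM in the membranes, so that the 2 defect tissues overlapped. Gp5, the subunit cleaved by thrombin, was at 7.18, 8.61, 4.67 and 5.99 CPM in BNED and at 2.17, 0.238, 0.512 and 0.934 CPM in PMMA bone. In PFNU it was at 0.216, 0.351, 0.104 and 0.163 CPM and in the membranes at 0.0192, 0, 0.116 and 0.0987 CPM. For each of the 3 genes the PMMA bone of rat 1 was the highest of its group and lay below the lowest BNED library. The mean levels of all 3 followed the order BNED, PMMA bone, PFNU and IM. PFNU and IM overlapped in each, and PMMA bone and PFNU overlapped for Gp1ba and Gp5.

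**Figure D1:**
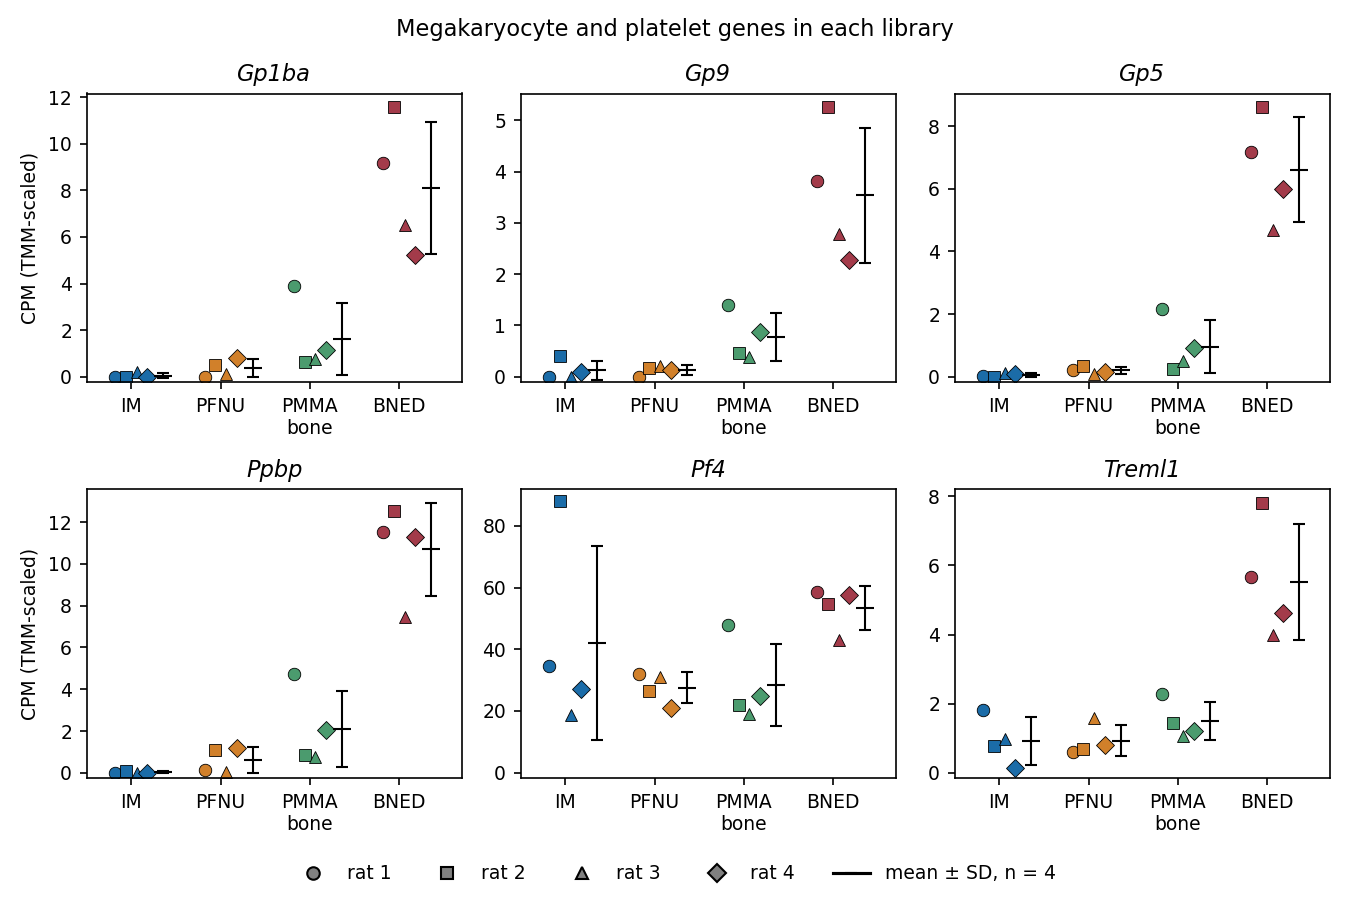
Level of the 6 measured members in each library in CPM (vertical axes, linear, scaled per gene) by group (horizontal axes), with 1 symbol per rat and the mean ± SD (n = 4) beside each group. BNED libraries lie above every other library for Gp1ba, Gp9, Gp5, Ppbp and Treml1, while for Pf4 the membrane of rat 2, at 87.9 CPM, lies above all others. The share of all genes with BNED above every other library was not counted.

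The sequences upstream of these 3 subunit genes and of Ppbp, described next, are shown because the levels of the 4 genes varied together and because megakaryocyte genes are known as targets of GATA and ETS factors. Erythroid and neutrophil genes varied closely with the members too, so the shared pattern does not set these promoters apart. The sequences are the 250 bases before the annotated start, from RefSeq on build GRCr8, whereas the counts were made on rn5. Capitals mark matches on either strand to AGATAA for GATA factors (or its variant form TGATAA), to AGGAAG for ETS factors (or its variant form CGGAAG), and to TGACTCA, the core shared by AP-1 and NF-E2.
Gp1ba at chr10:55851309-55851558, plus strand: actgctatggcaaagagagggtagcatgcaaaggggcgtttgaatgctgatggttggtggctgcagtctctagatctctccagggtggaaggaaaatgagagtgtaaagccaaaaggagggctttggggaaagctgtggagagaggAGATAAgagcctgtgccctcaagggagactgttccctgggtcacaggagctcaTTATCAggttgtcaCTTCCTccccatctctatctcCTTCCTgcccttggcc
Gp9 at chr4:121792592-121792841, plus strand: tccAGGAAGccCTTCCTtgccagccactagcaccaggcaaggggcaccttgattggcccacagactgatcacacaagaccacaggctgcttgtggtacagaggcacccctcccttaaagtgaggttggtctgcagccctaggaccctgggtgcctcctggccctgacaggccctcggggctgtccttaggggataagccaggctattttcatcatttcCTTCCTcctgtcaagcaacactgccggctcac
Gp5 at chr11:83948257-83948506, plus strand: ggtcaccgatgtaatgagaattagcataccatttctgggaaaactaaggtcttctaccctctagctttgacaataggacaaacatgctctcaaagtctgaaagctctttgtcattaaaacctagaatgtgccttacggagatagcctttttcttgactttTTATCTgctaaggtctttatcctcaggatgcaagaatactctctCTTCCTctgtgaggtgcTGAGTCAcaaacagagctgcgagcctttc
Ppbp at chr14:17587300-17587549, minus strand: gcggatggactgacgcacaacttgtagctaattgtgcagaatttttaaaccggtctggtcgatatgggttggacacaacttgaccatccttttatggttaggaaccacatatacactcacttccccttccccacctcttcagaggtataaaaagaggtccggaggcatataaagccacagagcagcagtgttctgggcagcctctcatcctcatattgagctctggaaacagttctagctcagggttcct

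Gp1ba held 2 matches of the GATA family and 2 of the ETS family, Gp9 held 3 of the ETS family, and Gp5 held 1 of each family and 1 of the AP-1 and NF-E2 core, which starts 29 bases before the gene. Over 33469 RefSeq promoters of the same length, 16.9% held a GATA match, 39.4% an ETS match and 4.05% the AP-1 and NF-E2 core. RefSeq held promoters for 5 of the 6 measured members, and none of these letters was in the windows of Ppbp and Treml1. A match describes the letters and shows no binding.

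The genes of the 2 granule chemokines differed in pattern. Ppbp, which yields a neutrophil-attracting peptide when platelets are activated, was at 11.5, 12.5, 7.46 and 11.3 CPM in the BNED of rats 1 to 4 and at 4.72, 0.866, 0.768 and 2.05 CPM in their PMMA bone. It was at 0.130, 1.11, 0.0623 and 1.21 CPM in PFNU and at 0.0192, 0.100, 0 and 0 CPM in the membranes, 7 counts in all in the latter. As with the receptor genes, the order of the means was BNED, PMMA bone, PFNU and IM, and PMMA bone and PFNU overlapped. Pf4, a heparin-binding chemokine, was at 58.6, 54.5, 43.1 and 57.6 CPM in BNED and at 48.0, 21.9, 19.0 and 24.8 CPM in PMMA bone. In the defect tissues it was at 32.0, 26.4, 31.1 and 20.9 CPM in PFNU and at 34.6, 87.9, 18.6 and 27.0 CPM in the membranes. The membrane of rat 2 thus had the highest Pf4 level of all 16 libraries, and PMMA bone, PFNU and the other membranes overlapped. Pf4 transcripts are also known from macrophages, and the 9 macrophage genes in the table summed to 3271 CPM in that membrane, 1899 to 2326 CPM in the other membranes and 793 to 1990 CPM in the remaining libraries. The part of macrophages in the Pf4 signal was not tested.

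Treml1, which encodes a receptor of platelet alpha granules that moves to the surface on activation, was at 5.67, 7.81, 3.98 and 4.61 CPM in the BNED of rats 1 to 4. In PMMA bone it was at 2.29, 1.44, 1.05 and 1.20 CPM, in PFNU at 0.606, 0.701, 1.58 and 0.817 CPM and in the membranes at 1.80, 0.787, 0.963 and 0.138 CPM. BNED again lay above every other library, and the other 3 groups overlapped. The summed neutrophil genes also had their lowest BNED library, at 1238 CPM, above every other library, the highest of which had 595 CPM. The pattern is thus not particular to the members, and the share of all genes that show it was not counted.

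The first comparison set PMMA bone against BNED. In all 4 rats each of the 6 members was lower in PMMA bone than in BNED of the same animal. The share of all genes lower in all 4 rats was not counted. The ratio of BNED to PMMA bone within a rat was 2.35 to 18.4 for Gp1ba, 3.31 to 36.2 for Gp5, 2.59 to 11.5 for Gp9, 2.44 to 14.5 for Ppbp, 2.48 to 5.42 for Treml1 and 1.22 to 2.49 for Pf4. Libraries did not overlap for 5 of 6 members, Pf4 being the exception, against 7.05% of all genes tested that were lower in every PMMA bone library than in every BNED library. Signed values beside a gene name are log2 fold changes of the first tissue over the second. Over all genes, only Gp5 of the 6 passed the edgeR test. It was at 0.964 ± 0.855 CPM (SD, n = 4) in PMMA bone and 6.61 ± 1.68 CPM in BNED, and was lower (-2.79, SE 0.66, adjusted p = 0.0338). Of all genes, 1.4% were called lower. Not called were Gp1ba at -2.34 (SE 0.95, adjusted p = 0.152), Gp9 at -2.18 (SE 0.89, adjusted p = 0.152), Ppbp at -2.35 (SE 0.81, adjusted p = 0.0988), Treml1 at -1.89 (SE 0.54, adjusted p = 0.0569) and Pf4 at -0.91 (SE 0.40, adjusted p = 0.175). The members' median was -2.26, and that of all genes -0.0087. All 11 erythroid, 10 neutrophil and 10 skeletal muscle genes tested also had negative fold changes between the bones.

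The number of members called between the 2 bones depended on the libraries and on the tool. Without the PMMA bone of rat 1, edgeR called 5 members lower, all but Gp9, and 10.5% of all genes. Gp5 was then at -3.55 (SE 0.67, adjusted p = 0.00345), Gp1ba at -3.25 (SE 1.04, adjusted p = 0.0406), Ppbp at -3.12 (SE 0.87, adjusted p = 0.0229), Treml1 at -2.16 (SE 0.60, adjusted p = 0.0221), Pf4 at -1.29 (SE 0.40, adjusted p = 0.0358) and Gp9 at -2.61 (SE 1.00, adjusted p = 0.0798). Each was farther from 0 than with all libraries. That library was the highest PMMA bone library for all 6 members, so this shift was fixed in advance and is no result. With the 8 bone libraries alone it called 5, all but Pf4, and 4.92% of all genes lower. DESeq2 called 3 members (Gp5, Ppbp and Treml1) and 4.35% of all genes lower, and limma-voom with quality weights called all 6 and 23.9%. Gp5 was not called when any other PMMA bone library or any BNED library was left out (adjusted p = 0.0504 to 0.119). Treml1 was called when the membrane of rat 1, 2 or 4 was left out (adjusted p = 0.0221 to 0.0479). Leaving out 1 library gave 0 to 2578 calls between the bones over all genes. The changed calls of Gp5 and Treml1 are therefore no result about these 2 genes.

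**Figure D2:**
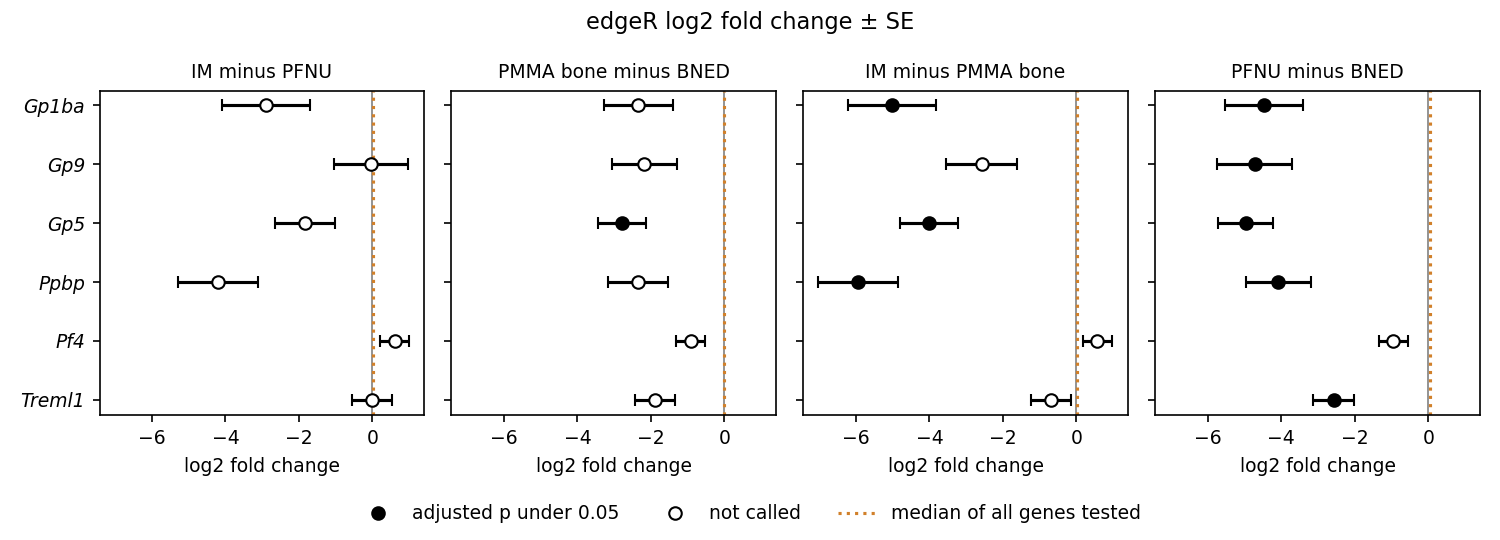
Log2 fold change of each member (horizontal axes) with its standard error in 4 comparisons of groups of 4 libraries, from edgeR. Filled symbols passed an adjusted p of 0.05 and the dotted line is the median of all genes tested. For PFNU minus BNED 5 of 6 members are filled. For IM minus PFNU none is, but there 4 of the 6 passed the filter on low counts only through bone.

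PFNU was compared with the bone of the same limb to set the defect tissue against its neighbour. Of the 6 members 5 fell, and Pf4 did not pass the test. Gp5 was at 0.209 ± 0.105 CPM (SD, n = 4) in PFNU and fell (-4.97, SE 0.75, adjusted p = 3.85e-04). Gp9 fell (-4.73, SE 1.02, adjusted p = 0.00353), Gp1ba (-4.47, SE 1.06, adjusted p = 0.00625), Ppbp (-4.08, SE 0.88, adjusted p = 0.00343) and Treml1 (-2.57, SE 0.56, adjusted p = 0.00352). Pf4 was at -0.95 (SE 0.40, adjusted p = 0.0791). Of all genes tested, 15.2% were called lower and 15% higher. In none of the 6 members did the libraries of the 2 tissues overlap, as in 21% of all genes in this direction. The members' median was -4.27, and that of all genes 0.037. The 5 calls held under each of the 22 alternatives, with an adjusted p of at most 0.0185.

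The membrane was set against the bone of the same limb in the same way. Ppbp was at 0.0299 ± 0.0479 CPM (SD, n = 4) in the membranes and 2.10 ± 1.84 CPM in PMMA bone, and fell (-5.94, SE 1.09, adjusted p = 0.00267). Gp1ba fell (-5.02, SE 1.20, adjusted p = 0.0102) and Gp5 (-4.01, SE 0.79, adjusted p = 0.00385). The 4 membranes held 7 counts of Ppbp, 10 of Gp1ba and 12 of Gp5, with 2, 3 and 1 libraries at 0. The direction of these falls is thus better measured than their size. Gp9, at -2.58 (SE 0.96, adjusted p = 0.0643), Treml1, at -0.69 (SE 0.54, adjusted p = 0.367), and Pf4, at 0.57 (SE 0.39, adjusted p = 0.315), were not called. Of all genes, 11% were called lower and 11.3% higher, and the libraries did not overlap for 3 of 6 members against 11.7% of all genes in this direction. The members' median was -3.30, and that of all genes 0.030. Gp9 was called lower by DESeq2 (-2.55, adjusted p = 0.0228) and by limma-voom (-4.82, adjusted p = 0.0383), and limma-voom did not call Gp1ba or Gp5 (adjusted p = 0.118 and 0.107). Without the membrane of rat 3 no count of Gp1ba was left in the membranes, and the fitted value of -9.47 is then no measured fold. Without the membrane of rat 2 Gp9 was called at -4.49 (adjusted p = 0.0116), and Pf4 was at -0.087.

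The 2 defect tissues were compared for the effect of the spacer within the gap. Gp5, Gp9, Gp1ba and Ppbp passed the filter on low counts through their levels in bone, and with the 8 defect libraries alone only Pf4 and Treml1 passed it. For those 4 genes the counts summed over the 4 libraries of each tissue were 12 in the membranes and 40 in PFNU for Gp5, 29 and 25 for Gp9, 10 and 68 for Gp1ba, and 7 and 118 for Ppbp. At such counts a missing call says nothing about a difference. Ppbp was lower in the membrane in 4 of 4 rats, at -4.21 (SE 1.08, adjusted p = 0.0819), and DESeq2 called it (adjusted p = 0.00115). Its counts in membrane and PFNU were 1 and 6 in rat 1, 6 and 57 in rat 2, 0 and 3 in rat 3, and 0 and 52 in rat 4. A count of 0 allows up to 3 counts, so the 2 tissues of rat 3 cannot be told apart. Most PFNU counts came from rats 2 and 4. The fitted values of the other 3 genes, given as descriptions, were -2.89 (SE 1.20) for Gp1ba, -1.84 (SE 0.81) for Gp5 and -0.034 (SE 1.02) for Gp9. That of Gp1ba was -7.34 without the membrane of rat 3, which held all membrane counts of the gene, and is then no measured fold. Of the members that passed in these tissues, Treml1 was at -0.0043 (SE 0.54, adjusted p = 0.999) and Pf4 at 0.61 (SE 0.39, adjusted p = 0.500), with overlapping libraries. Neither edgeR nor limma-voom called Treml1 or Pf4, and edgeR called 0.498% of all genes lower and 0.366% higher. The other 4 members were called by neither tool, but their low counts decide nothing. An unadjusted edgeR p under 0.05 was found for 3 of those 4 (Gp1ba, Gp5 and Ppbp) and for 1997 of all genes. These 4 genes entered the fit through bone, at the low counts above. Neither that tally nor the DESeq2 call of Ppbp is therefore support for a difference. Of all genes, 3.31% were lower in every membrane than in every PFNU library, and neither Treml1 nor Pf4 was.

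Whether the spacer's effect differed between defect and bone was tested with the interaction. EdgeR called 0 members and 0% of all genes in either direction. For Gp5, Gp9, Gp1ba and Ppbp the defect side rests on the low counts given above, with an SE of 1.10 to 1.41. For these 4 genes a missing call says nothing about a difference. An unadjusted p under 0.05 was found for Pf4, at 1.52 (SE 0.56, adjusted p = 0.466), and Treml1, at 1.88 (SE 0.76, adjusted p = 0.494), and for 1149 of all genes. DESeq2 and limma-voom called 0 members, and 131 and 218 of all genes.

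Other genes of the lineage were taken from 4 lists written with earlier results of these data known. They held 54 genes, of which 45 were in the table. Between PFNU and BNED 18 of the 45 fell and 6 rose, against 15.2% and 15% of all genes. Between PMMA bone and BNED 3 fell and 2 rose, against 1.4% and 3.51%. Without the PMMA bone of rat 1, 13 fell and 7 rose there, against 10.5% and 9.37%. Between membrane and PMMA bone 11 fell and 5 rose, against 11% and 11.3%. With all libraries, the rises in these 3 comparisons were near the share over all genes and are no result about the lists. Between membrane and PFNU edgeR called 0 of the 45, with 14 at an unadjusted p under 0.05. The median over the 45 genes was -0.52, -0.46, -0.21 and 0.12 in these 4 comparisons. The shares of all genes called in each comparison apply also to the counts of each list below, where a count near its share is no result about that list.

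Of 8 measured regulators of the lineage, 5 fell between PFNU and BNED. Nfe2, a subunit of the factor NF-E2 that drives platelet release, was at 4.13 ± 1.41 CPM (SD, n = 4) in PFNU and 72.3 ± 11.6 CPM in BNED, and fell (-4.13, SE 0.61, adjusted p = 3.47e-04). Gfi1b, a repressor of erythroid and megakaryocyte precursors, fell (-4.24, SE 0.83, adjusted p = 0.00190), and Tal1, a partner of GATA factors, (-2.86, SE 0.61, adjusted p = 0.00308). Against PMMA bone, 4 regulators fell in the membrane, led by Gfi1b (-6.31, SE 0.95, adjusted p = 8.13e-04), Nfe2 (-4.10, SE 0.61, adjusted p = 7.58e-04) and Tal1 (-3.47, SE 0.62, adjusted p = 0.00239). There the ETS factor gene Fli1, also active in endothelium, rose (0.62, SE 0.17, adjusted p = 0.0183). Between the bones edgeR called none (4 of 8 at an unadjusted p under 0.05), and 4 fell without the PMMA bone of rat 1. In the PMMA bone of rat 1 Nfe2 was at 79.4 CPM, within the BNED range of 58.4 to 82.2 CPM, and Gfi1b at 51.3 CPM, above its range of 31.1 to 50.2 CPM, whereas the members other than Pf4 were below theirs. Between membrane and PFNU Gfi1b was at -3.29 (SE 0.87, adjusted p = 0.0842) and Nfe2 at -1.28 (SE 0.56, adjusted p = 0.292), both without overlap of the libraries.

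Platelet receptors outside the member list were mixed. Of 12 measured, 3 fell and 1 rose between PFNU and BNED, against 15.2% and 15% of all genes. Clec1b, the podoplanin receptor of platelets, was at 0.769 ± 0.474 CPM in PFNU and 7.62 ± 1.21 CPM in BNED, and fell (-3.31, SE 0.90, adjusted p = 0.0131). The thromboxane receptor gene Tbxa2r fell (-2.42, SE 0.29, adjusted p = 1.22e-04) and F2rl3, a thrombin receptor gene, (-1.54, SE 0.43, adjusted p = 0.0146). Selp, the adhesion receptor that platelets share with endothelium, rose (1.52, SE 0.29, adjusted p = 0.00168). In the membrane against PMMA bone Tbxa2r fell (-2.35, SE 0.29, adjusted p = 2.22e-04) and Selp rose (0.88, SE 0.29, adjusted p = 0.0406). Between the bones edgeR called none of the 12 (5 at an unadjusted p under 0.05). Without the PMMA bone of rat 1, 2 of the 12 fell and 2 rose, against 10.5% and 9.37% of all genes. With all libraries Clec1b was at -2.17 (SE 0.85, adjusted p = 0.141) with no overlap of the libraries, and Selp at 1.02 (SE 0.29, adjusted p = 0.0544). Itgb3, the β chain that pairs with the product of Itga2b and that osteoclasts also use, was at 117 ± 59.6 CPM in PMMA bone and 58.0 ± 14.0 CPM in BNED and was not called, at 1.02 (SE 0.75, adjusted p = 0.426). P2ry12, the ADP receptor of platelets and microglia, had group means of 5.24 to 9.59 CPM and was not called in any pairwise comparison.

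Many granule cargo and signalling genes are active in other cells too. Of 10 cargo genes, 4 rose and 2 fell between PFNU and BNED. Vwf, made by endothelium as well as by megakaryocytes, rose (1.95, SE 0.40, adjusted p = 0.00258) and the clusterin gene Clu (2.40, SE 0.49, adjusted p = 0.00252). The granule proteoglycan gene Srgn fell (-2.05, SE 0.23, adjusted p = 1.08e-04) and the coagulation factor gene F5 (-1.53, SE 0.39, adjusted p = 0.00895). Between the bones Vwf rose (1.49, SE 0.40, adjusted p = 0.0435) and Srgn fell (-1.12, SE 0.23, adjusted p = 0.0230). Without the PMMA bone of rat 1, 4 rose and 2 fell. In the membrane against PMMA bone Clu rose (1.65, SE 0.48, adjusted p = 0.0243) and Srgn fell (-1.14, SE 0.23, adjusted p = 0.00415).

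Of 15 signalling genes, 8 fell and 1 rose between PFNU and BNED. Rasgrp2, which encodes the activator of Rap1 in platelets, fell (-2.16, SE 0.31, adjusted p = 2.98e-04), the kinase gene Syk (-1.99, SE 0.31, adjusted p = 4.88e-04) and the granule release gene Unc13d (-1.91, SE 0.30, adjusted p = 5.14e-04), and the dynamin gene Dnm3 rose (1.91, SE 0.40, adjusted p = 0.00298). Between the bones 2 fell, Rasgrp2 (-1.34, SE 0.30, adjusted p = 0.0291) and the phospholipase gene Plcg2 (-1.01, SE 0.19, adjusted p = 0.0189). Without the PMMA bone of rat 1, 5 fell and 1 rose. In the membrane against PMMA bone 5 fell, led by Unc13d (-1.57, SE 0.30, adjusted p = 0.00358), Rasgrp2 (-1.56, SE 0.30, adjusted p = 0.00373) and the adaptor gene Lat (-1.53, SE 0.32, adjusted p = 0.00493). There Dnm3 rose (2.15, SE 0.40, adjusted p = 0.00307) and Tbxas1, the thromboxane synthase gene, (1.47, SE 0.41, adjusted p = 0.0210).

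**Figure D3:**
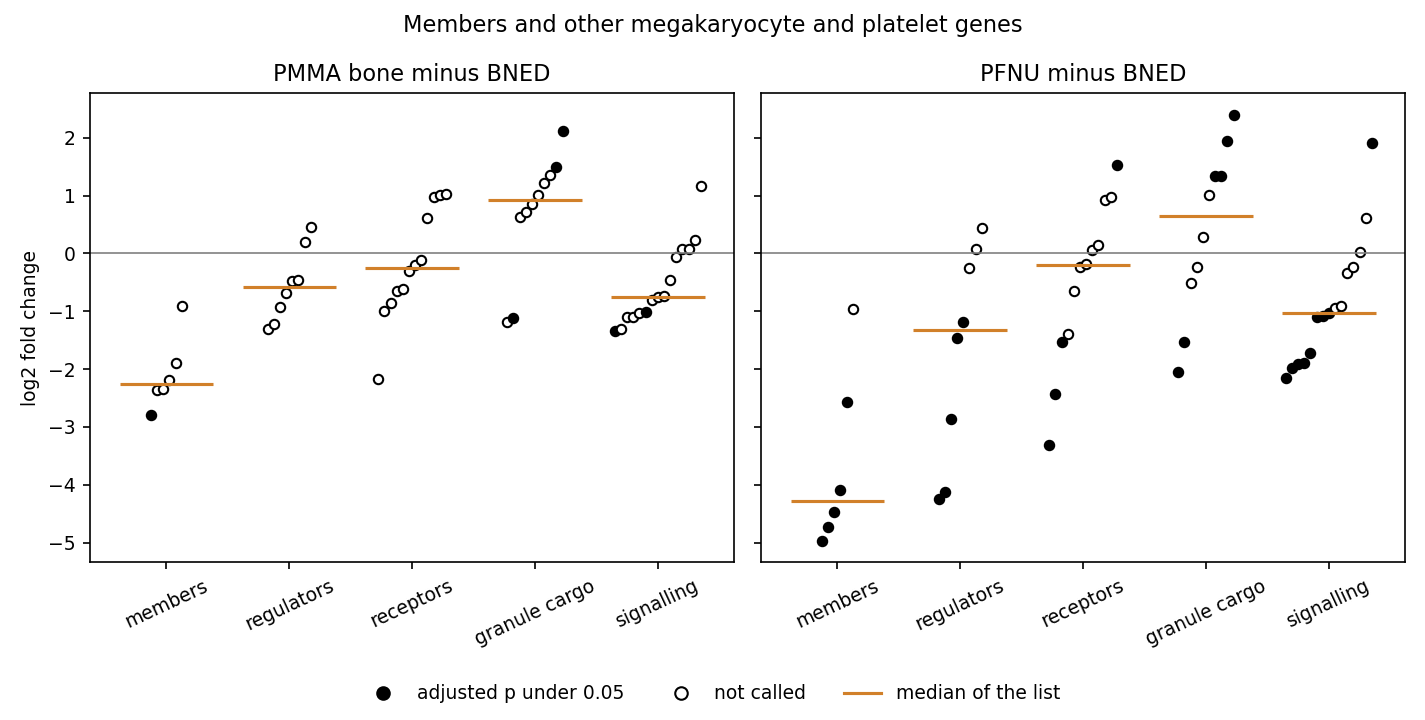
Log2 fold change of each measured gene (vertical axes) in the members and in the 4 other lists (horizontal axes), for PMMA bone minus BNED and PFNU minus BNED, each over 4 libraries a group. Filled symbols passed an adjusted p of 0.05 and bars are list medians. The medians of members and granule cargo are -2.26 and 0.93 between the bones and -4.27 and 0.65 between PFNU and BNED.

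Markers of other marrow and blood cells moved beside the members. All 11 erythroid genes fell between PFNU and BNED and between membrane and PMMA bone. Between the bones edgeR called none of them, and 0 had an unadjusted p under 0.05 (median -1.11). Without the PMMA bone of rat 1, 11 of 11 fell (median -2.95). Of 10 neutrophil genes, 9 fell in each comparison of defect tissue with bone, and 4 fell between the bones (median -2.06) and 4 between membrane and PFNU (median -2.35). Their summed level was 1238 to 1777 CPM in BNED, 595 CPM in the PMMA bone of rat 1, 207 to 279 CPM in the other PMMA bones, 47.2 to 116 CPM in PFNU and 7.34 to 26.3 CPM in the membranes. Of 11 endothelial genes tested, 10 rose between PFNU and BNED and 4 between the bones, where 3.51% of all genes were called higher. Of 8 macrophage genes tested, edgeR called none in either comparison with BNED (2 in PFNU and 1 in PMMA bone at an unadjusted p under 0.05). In the membrane 4 of the 8 rose against PMMA bone (median 1.30). Between membrane and PFNU edgeR called none of the 8, with 6 at an unadjusted p under 0.05 (median 1.07). Of 10 skeletal muscle genes 8 rose between PFNU and BNED and 1 fell between the bones. Between the bones 9 of the 10 had an unadjusted edgeR p under 0.05, with a median of -2.56 (-2.24 without the PMMA bone of rat 1). Of 8 fibroblast genes 2 rose between PFNU and BNED and 2 between the bones. Of 8 bone cell genes 1 fell between PFNU and BNED and edgeR called none between the bones (0 at an unadjusted p under 0.05). Without the PMMA bone of rat 1, 9 neutrophil genes, 1 macrophage gene and 1 skeletal muscle gene fell between the bones, 8 endothelial and 3 fibroblast genes rose, and edgeR called 0 bone cell genes (0 at an unadjusted p under 0.05). The part of these cell types in the members' differences was not tested.

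The members other than Pf4 were also set against the erythroid and neutrophil signal. They summed to 25.4 to 45.8 CPM in BNED, 3.51 to 14.5 CPM in PMMA bone, 0.952 to 3.15 CPM in PFNU and 0.336 to 1.84 CPM in the membranes. Per 1000 CPM of neutrophil genes this was 15.8 to 27.7 CPM in BNED, 12.6 to 24.4 in PMMA bone, 20.2 to 30.2 in PFNU and 45.7 to 104 in the membranes, so that the first 3 groups overlapped. Per 1000 CPM of erythroid genes it was 0.533 to 1.32 CPM in BNED, 0.620 to 1.11 in PMMA bone without rat 1, 0.754 to 1.66 in PFNU and 0.365 to 6.93 in the membranes. The PMMA bone library of rat 1 had 0.240, the lowest of all 16 libraries, at the highest erythroid level of all. With Pf4, which took 54.4 to 98.8% of the members' summed CPM, the median per 1000 CPM of erythroid genes was 2.13 in BNED, 4.95 in PMMA bone, 19.5 in PFNU and 60.3 in the membranes. In the membranes the sum without Pf4 was mostly Treml1, with means of 0.923 of 1.18 CPM, against 5.52 of 34.5 CPM in BNED. In the membrane of rat 1, the highest in both ratios without Pf4, Treml1 was 1.80 of 1.84 CPM. Treml1 was 0.787 of 1.29 CPM in the membrane of rat 2, 0.963 of 1.27 CPM in rat 3 and 0.138 of 0.336 CPM in rat 4. The membrane ratios without Pf4 thus describe mainly Treml1 in rats 1 to 3, but not in rat 4. The neutrophil genes in the first ratio summed to only 7.34 to 26.3 CPM in the membranes. All these ratios are descriptions, without a test.

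**Figure D4:**
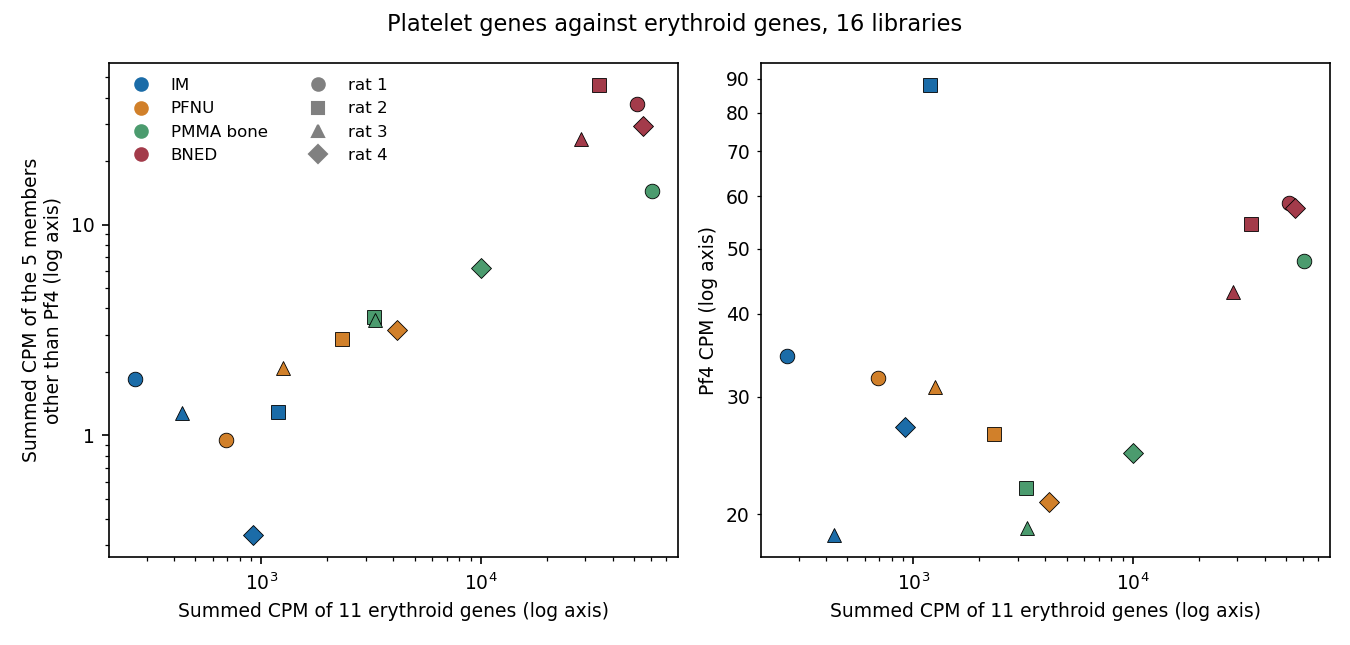
Summed CPM of the 5 measured members other than Pf4 (left, log axis) and CPM of Pf4 (right, log axis) against the summed CPM of 11 erythroid genes (horizontal, log axis) in 16 libraries, coloured by group and with 1 symbol per rat. On the left BNED lies at the top right, with the PMMA bone of rat 1 below it at 14.5 CPM, and on the right the membrane of rat 2 stands at 87.9 CPM.

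The members other than Pf4 varied together across libraries. Pearson's r of their log2 CPM was 0.73 to 0.94 over the 10 pairs across 16 libraries, and 0.93 to 0.98 across the 8 bone libraries. Pairs with Pf4 had 0.24 to 0.55 across 16 libraries and 0.92 to 0.97 in bone. These libraries share 4 rats and the contrast of bone with defect tissue, so the values describe them and carry no test. By the same measure, the genes of at least 1 CPM most like the mean level of the 6 members, among 11494 ranked, included Serpinb10 (r = 0.99), Nfe2 (r = 0.98), Mcpt9 (r = 0.98), Hmgb2 (r = 0.98), Defa10 (r = 0.97), Cd72 (r = 0.97), Lig4 (r = 0.97), Alox15 (r = 0.97) and Epor (r = 0.97). Epor, the gene of the erythropoietin receptor, stood in the erythroid list, and Nfe2 among the regulators. Serpinb10, a serpin gene of blood cells, was at 14.9 ± 2.53 CPM (SD, n = 4) in BNED, 3.17 ± 3.44 CPM in PMMA bone, 0.455 ± 0.383 CPM in PFNU and 0.127 ± 0.0622 CPM in the membranes. Defa10 belongs to a family of closely similar defensin genes, and its value is uncertain.

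Of the members without a row, Gp1bb lies within the span of Septin5 in RefSeq's GRCr8 annotation, and the table holds that neighbour under its older symbol Sept5. Whether reads of Gp1bb were counted there is not known. Sept5 was at 73.7 ± 18.5 CPM (SD, n = 4) in PMMA bone, 36.4 ± 4.92 CPM in BNED, 25.4 ± 8.49 CPM in PFNU and 38.2 ± 18.8 CPM in the membranes. Its highest mean was in PMMA bone, and that of each measured member in BNED. Sept5 was at 1.02 (SE 0.32, adjusted p = 0.0761) between the bones, and it fell (-0.95, SE 0.32, adjusted p = 0.0446) in the membrane against PMMA bone. No value of Gp1bb is drawn from it.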

How the data were processed

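RNA-seq counts of 16 rat tissue libraries were analysed, 4 per group and 1 per rat in each, assigned from the labels. The authors deposited whole-number counts per gene symbol, without normalisation. Per the submitters' processing notes, reads were handled with TopHat2 2.0.13, Bowtie2 2.2.1, FastQC 0.11.3 and DESeq2 on build rn5. Which program, annotation and strand setting made the counts is not given in the sources used here, so reads of overlapping or antisense genes cannot be told apart.

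EdgeR 4.0.16 (quasi-likelihood test, R 4.3.3) was fitted to all 16 libraries with TMM factors, filterByExpr and a mean per group, with Benjamini-Hochberg adjustment over the 12857 genes tested. Calls are those with an adjusted p under 0.05. The standard error is the log2 fold change divided by the square root of F. Correlations used log2 CPM with a prior count of 2. The fit was tested on simulated data.

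The members and lists were chosen with earlier results of these data known. Named beside the members were up to 3 called genes per list and direction in each pairwise comparison, 7 measured genes of a fixed panel (Gfi1b, Nfe2, Itgb3, Clec1b, P2ry12, Selp and Vwf), Sept5 and the 10 most similar genes. Some genes that this rule names are not reported here. Alternatives were RLE factors, no filter, DESeq2 1.42.0, limma-voom 3.58.1, a replicate block for rat, the compared libraries alone and leaving out each library. Samples with the same number come from 1 rat, per the labels, and are thus paired. Their deviations from the group means correlated at -0.35 to 0.50 over 24 pairs of libraries. Replicates differed by more than sampling noise, with chi-square values of at least 80.6 for each degree of freedom, and all were kept. The reads carry no molecular identifiers, so limits for a count of 0 cover counting error only.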

Additional observations from a re-analysis of the deposited data

Results flagged for a closer look

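In 36 groups of 4 libraries checked for a library far from the others, 3 were found, and chance gives about 1 in 20. Gp1ba in the membrane of rat 3, at 0.193 CPM, stood apart from the other membranes, which had no counts. In the PMMA bone of rat 1, Gp1ba at 3.90 CPM and the summed erythroid genes at 60396.5 CPM stood far above the other PMMA bones.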

How the results depend on the processing

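The replicate block for rat changed no member's call (0, 1, 3, 5 and 0 called between membrane and PFNU, the bones, membrane and PMMA bone, PFNU and BNED, and in the interaction), and lowered the genes called between membrane and PFNU from 111 to 47. DESeq2 called 1 member between membrane and PFNU and 3 between the bones, where limma-voom called 6 and the compared libraries alone 5. Over all genes, membrane against PFNU gave 563 calls with DESeq2, 0 with limma-voom and 0 with the compared libraries alone, where 4 members did not pass the filter. The bones gave 631 calls, and 1518, 6244 and 1767 by these alternatives. Membrane against PMMA bone gave 2860, and 908 with the compared libraries alone, PFNU against BNED 3884, and 6720 with limma-voom, and the interaction 0, and 131 with DESeq2 and 218 with limma-voom. Leaving out 1 library gave 0, 0 to 5, 3 to 4, 5 to 6 and 0 members, and 11 to 244, 0 to 2578, 1818 to 4047, 2637 to 4755 and 0 to 199 of all genes. The bones gave 2578 without the PMMA bone of rat 1, 1153 without the membrane of rat 2, 271 and 350 without the BNED of rats 2 and 4, and 0 without any other PMMA bone or BNED. Between membrane and PFNU, Gp9 ranged from -1.94 to 0.42 (-2.22 with limma-voom), Pf4 from -0.046 to 0.85 (-0.14 with limma-voom) and Treml1 from -0.54 to 0.38 (0.069 with the compared libraries alone). Pf4 ranged from -0.087 to 0.94 between membrane and PMMA bone, and Gp1ba from -5.00 to 0.35 in the interaction (1.45 with limma-voom). Of the 10 genes most like the members, 4 to 9 were kept. Members per 1000 CPM of erythroid genes other than globins had medians of 1869.75, 275.8, 51.3 and 21.4 in IM, PFNU, PMMA bone and BNED. Without Pf4, chosen after seeing the data as were leaving out libraries for the similar genes and leaving out the PMMA bone of rat 1 for the lists, the ratio to all erythroid genes was 2.00, 1.30, 0.840 and 0.808. Of the fold changes of members under these alternatives, 601 kept direction and call, 25 gained and 9 lost a call, and 15 changed sign. The causes were not tested.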
